A study of Mus musculus with 4 samples.

Results

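Genes of the amino acid stress response, of serine synthesis and of folate metabolism were examined in a pair of mouse stromal lines, OP9M2 and BFC012. They were 38 genes listed by name, and every probe set that the array annotation maps to a single gene of the list was taken. Of the 38 genes, 37 had at least 1 such probe set, 86 probe sets in all, out of 18193 genes and 45037 probe sets tested on the array. Pycr1 was not listed under its own name in the annotation used here. The list was proposed when the differences between the lines were already known, so the differences and calls of its genes are given as a description of these arrays and are not evidence for the pathway.

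OP9M2 is 1 clone of mesenchymal stem cells picked from the OP9 stroma, and it keeps human blood progenitors undifferentiated in co-culture. BFC012, a stromal line from mouse fetal liver, does not. Each line was measured on 2 Affymetrix mouse expression arrays, which the labels call biological replicates without saying whether the cultures were kept apart, so the spread may be partly technical. The cells of both lines received 2000 rad and were seeded 48 hours ahead of the RNA preparation, at a density of 25000 per cm2. OP9M2 grew in 20% serum and BFC012 in 10%, and differences due to serum cannot be told apart from those due to the line. Because RNA of whole cultures was measured, fewer cells expressing a gene and less RNA per cell cannot be told apart either.

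Cells that run short of an amino acid, or that are stressed in the endoplasmic reticulum, slow most protein synthesis but translate more of the transcription factor ATF4. ATF4 and its partners of the C/EBP family then switch on genes for amino acid uptake, for asparagine and serine synthesis and for the tRNA synthetases. Serine made from a glycolytic intermediate gives its side carbon to folate, and folate carries that carbon into thymidylate and purines, the building blocks of DNA. The same folate genes are known to be busy in dividing cells, and the regulator DDIT3, also called CHOP, is best known for its part in prolonged stress.

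ATF4 and C/EBP proteins bind together to an element with the letters TGATGNAA. The promoters of the genes are shown first because several of them hold it. Of those measured, only Nupr1 passed the thresholds given below. Promoter windows from RefSeq (build GRCm38.p6, 250 bases before to 50 after the start of each transcript) matched 31 of the 38 genes by symbol. The letters TGATGNAA stood on either strand in 8 of these 31 genes (25.8%), against 4.51% of the 27025 genes with a window. The list was put together largely from genes known as ATF4 targets, and the share only describes it. The E-box CACGTG, which overlaps none of these matches, was found in 5 of the 31 (16.1%, against 8.09% of all genes), and the ER stress response element (ERSE) in 0 of the 31 (0.137% of all genes). A match is a run of letters and not a measured binding site, and no match says only that the letters are absent from the window. In the stretches below, each 5′ to 3′ in the direction of transcription, capitals mark the match to TGATGNAA or its reverse complement.
Asns: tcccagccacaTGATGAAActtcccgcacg
Chac1: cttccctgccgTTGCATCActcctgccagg
Got1: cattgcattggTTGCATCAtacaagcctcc
Slc1a4: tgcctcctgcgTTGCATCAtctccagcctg
Slc7a11: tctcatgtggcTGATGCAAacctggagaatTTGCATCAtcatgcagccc
Trib3: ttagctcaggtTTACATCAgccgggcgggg
Nupr1: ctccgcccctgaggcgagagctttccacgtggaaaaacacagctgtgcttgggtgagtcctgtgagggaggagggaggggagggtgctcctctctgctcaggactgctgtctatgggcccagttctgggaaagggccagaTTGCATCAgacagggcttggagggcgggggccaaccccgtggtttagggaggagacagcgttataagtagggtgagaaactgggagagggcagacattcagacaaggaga

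The stretch of Asns was chr6:7693214-7693243 on the minus strand, with the match 23 bases before the start, and that of Chac1 was chr2:119351038-119351067 on the plus strand, 193 bases before it. Got1 lay at chr19:43524689-43524718 (minus, 102 bases before) and Slc1a4 at chr11:20332699-20332728 (minus, 4 bases before). Slc7a11 held 2 matches in chr3:50443642-50443690 (minus, 66 and 47 bases before), and in Trib3 the match lay 14 bases after the start in chr2:152344028-152344057 (minus). For Nupr1, a gene that differed most between the lines among these, the 250 bases before the start are given (chr7:126625471-126625720, minus), with the match 110 bases before it. The eighth gene was Pycr1, which was not measured.

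Values are natural logarithms of the deposited intensities, which were read as RMA log2 values and are called log2 units, and each gene is represented by its brightest probe set unless another is named. A gene was called when it passed an adjusted p of 0.05 in limma, over all probe sets, and differed by 1 log2 unit (2-fold) or more. The level of probe sets for smell and pheromone receptors, 6.09 log2 units, served as background, and a fold against a line below it is given as at least the brighter mean over that level. Differences are OP9M2 minus BFC012 ± SE from the fit, with 2 arrays per line. The arrays of OP9M2 were less alike (r = 0.980 across probe sets) than those of BFC012 (r = 0.994), while r across the lines was 0.941 to 0.954. The poly-A labelling controls averaged 4.003 on OP9M2 replicate 2 and between 6.04 and 7.45 on the other arrays. Of the markers that would show other cells, 2 or 3 of 7 for blood and macrophages, 1 or 2 of 8 for endothelium and 3 of 11 for hepatocytes were above background on each array. In these short lists 0 were called, where 5.91% of all genes were. Ptprc, Pecam1 and Alb, which define these cells, were below it throughout, while Csf1r (6.89 to 7.07), Kdr (6.52 to 6.88) and Ttr (7.16 to 7.49) were above it. Of 6 epithelial markers 2 were above background on each OP9M2 array and 5 on each BFC012 array, Cdh1 (-4.56 ± 0.24) and Krt7 (-2.19 ± 0.23) were lower in OP9M2, and Epcam was at 8.73 to 10.32 on all 4 arrays. Of 14 mesenchymal markers 13 were above background on each OP9M2 array, and 13 and 12 on BFC012 replicates 1 and 2. Col1a2 (8.07 ± 0.14) and S100a4 (2.23 ± 0.13) were called higher in OP9M2, and Eng (-1.88 ± 0.20) was called lower. Col1a2 read 6.18 and 6.07 in BFC012, close to background. The part of these markers in the differences below was not tested.

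Glul, Nupr1 and Slc38a4 were higher in OP9M2, and Slc38a1 and Mthfd1 were lower. They were thus 3 genes called higher and 2 called lower out of 37, while 32 were not called. Of all genes 5.91% were called, 2.36% higher and 3.56% lower. Of the 86 probe sets of the list 7 were called higher and 5 lower, where 4.46% of all probe sets were called, 1.8% higher and 2.66% lower. An unadjusted p under 0.05 in limma was reached by 13 of the 37, 9 higher and 4 lower, against 23.3% of all genes. The median difference of the list was -0.015, against 0.032 over all genes. In 11 genes both OP9M2 arrays lay above both BFC012 arrays (28.4% of all genes did), in 7 both lay below (24.8% of all genes), and in 19 the lines overlapped.

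**Figure D1:**
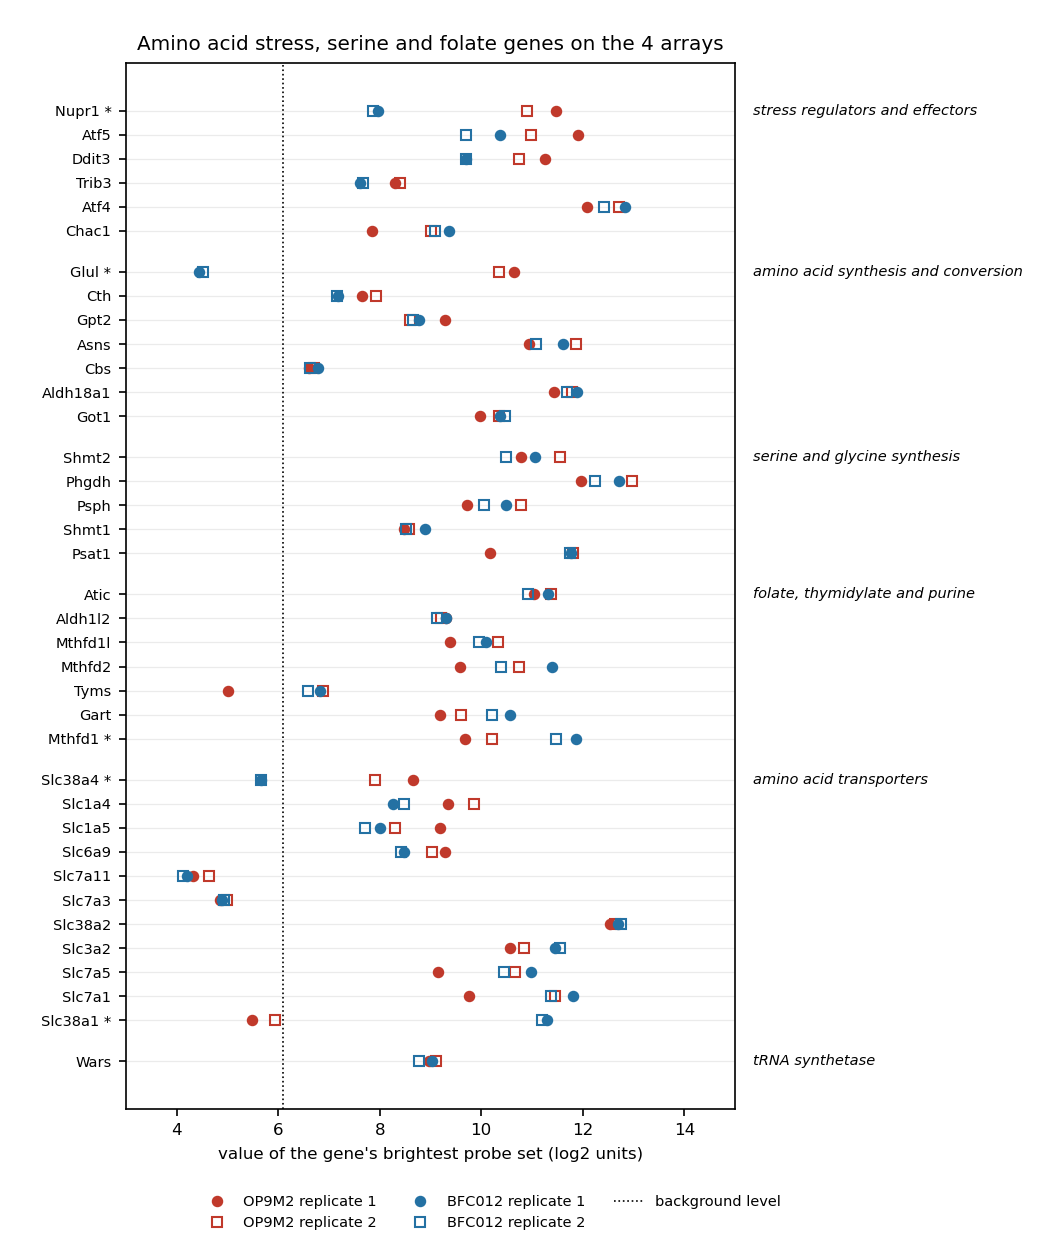
Value of the brightest probe set of each of the 37 genes (rows, grouped by role and ordered by difference) by array (horizontal axis, log2 units); red is OP9M2, blue is BFC012, filled circles are replicate 1, open squares are replicate 2, background is dotted and asterisks mark the 5 called genes. Glul, Nupr1 and Slc38a4 lie far to the right in OP9M2 and Slc38a1 far to the left, while most serine and folate genes have the filled red circle of OP9M2 replicate 1 to the left of the red square.

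Among the regulators, Atf4 itself did not separate the lines. Its brightest probe set read 12.08 and 12.71 in OP9M2 replicates 1 and 2, against 12.83 and 12.42 in BFC012 (-0.22 ± 0.28). The arrays of the lines overlapped, and the next probe set (0.22 ± 0.40) overlapped as well, while the third was below background on every array. Since ATF4 is controlled mainly by translation, its transcript is known to be a poor measure of the protein. Atf5, a related factor that is also translated under stress, read 11.90 and 10.97 in OP9M2, against 10.37 and 9.70 in BFC012 (1.40 ± 0.40, not called).

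Ddit3, which encodes CHOP, was higher in OP9M2 by 1 of its 2 probe sets. The dimmer probe set, 1443897_at, read 8.55 and 8.21 in OP9M2, against 6.59 and 6.66 in BFC012 (1.75 ± 0.17, 3.36-fold, called). The brighter, 1417516_at, read 11.26 and 10.73 in OP9M2, against 9.70 on both BFC012 arrays, which is the same direction without a call (1.30 ± 0.22). Neither probe set overlapped between the lines. Ddit3 was called by its brighter probe set when arrays were quantile normalized, when dim probe sets were left out and without OP9M2 replicate 1 (1.04) or replicate 2 (1.56).

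Nupr1, a small chromatin protein induced by stress, had the largest difference of the regulators. It read 11.48 and 10.90 in OP9M2, against 7.97 and 7.87 in BFC012 (3.27 ± 0.24, 9.66-fold, called). The second probe set agreed in size at 3.06 ± 0.27 (8.34-fold, called). Both OP9M2 arrays were about 3 log2 units above both BFC012 arrays, and all 4 arrays were above background.

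Trib3 and Chac1, which are also switched on by ATF4 and CHOP, were not called. Trib3, a pseudokinase that holds back ATF4, had means of 8.35 in OP9M2 and 7.64 in BFC012 (0.71 ± 0.13), and its other probe set differed by 0.38. Chac1, an enzyme that breaks down glutathione, read 7.85 and 9.001 in OP9M2, against 9.37 and 9.08 in BFC012 (-0.80 ± 0.41). Its low value was on OP9M2 replicate 1 alone. The 4 regulators with both OP9M2 arrays above both BFC012 arrays were therefore Atf5, Ddit3, Trib3 and Nupr1, and Chac1 lay below on both. Of all genes 28.4% lay above and 24.8% below in this way.

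Glul was higher in OP9M2 by both of its probe sets. It encodes glutamine synthetase, which makes glutamine from glutamate and ammonia. Probe set 1426236_a_at read 10.65 and 10.35 in OP9M2, against 4.44 and 4.51 in BFC012 (6.03 ± 0.16, at least 21.2-fold, called). The other, 1426235_a_at, read 8.13 and 8.67 in OP9M2, against 4.43 and 4.47 in BFC012 (3.95 ± 0.22, at least 4.95-fold, called). By both probe sets the gene was above background in OP9M2 and below it in BFC012.

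The other enzymes of amino acid synthesis and conversion were not called. Asns, asparagine synthetase and a classical target of ATF4, read 10.94 and 11.87 in OP9M2, against 11.61 and 11.08 in BFC012 (0.058 ± 0.38). The BFC012 arrays fell between those of OP9M2, and the second probe set (0.23 ± 0.38) did the same. Cth, which makes cysteine from cystathionine, had means of 7.79 in OP9M2 and 7.17 in BFC012 (0.62 ± 0.16), with no overlap. The transaminases Gpt2 (0.24) and Got1 (-0.25), the proline enzyme Aldh18a1 (-0.18) and Cbs, which makes cystathionine (-0.044), differed by less. For Cbs a second probe set was below background in OP9M2 (5.85 and 5.64, against 6.65 and 6.78 in BFC012) and differed by -0.97 ± 0.15, just under the fold needed for a call. Wars, a tRNA synthetase for tryptophan that interferon also induces, gave mixed readings. Of its 4 probe sets 1415694_at read 7.11 and 7.26 in OP9M2, against 8.38 and 8.14 in BFC012 (-1.08 ± 0.16, called). Its brightest probe set read 8.97 and 9.11 in OP9M2, against 9.02 and 8.77 in BFC012 (0.14 ± 0.16), and the other two differed by 0.46 and -0.15, so the direction for Wars was not settled.

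**Figure D2:**
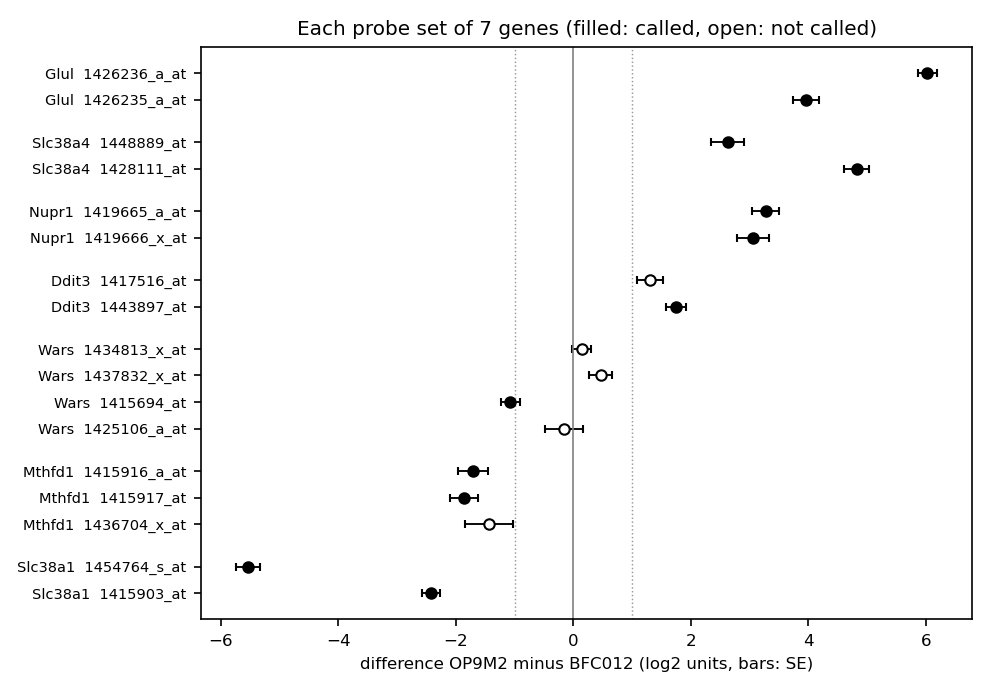
Difference OP9M2 minus BFC012 (horizontal axis, log2 units, bars are SE) for every probe set of the 5 called genes and of Ddit3 and Wars (rows); filled points were called, open points were not and dotted lines mark 1 log2 unit in either direction. The probe sets of Glul (6.03 and 3.95) and Slc38a1 (-5.54 and -2.42) differ in size but not in direction, while those of Wars lie on both sides of 0.

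None of the 5 genes of serine and glycine synthesis was called by limma, and 0 of them reached an unadjusted p under 0.05 (23.3% of all genes did). The lines overlapped in all 5 by the brightest probe set, as they did in 8507 of all 18193 genes. Phgdh encodes the first enzyme of serine synthesis. It read 11.96 and 12.97 in OP9M2, against 12.72 and 12.24 in BFC012 (-0.015 ± 0.39), and its other 3 probe sets differed by between -0.015 and 0.17. Psat1, the next enzyme, read 10.18 and 11.80 in OP9M2, against 11.78 and 11.74 in BFC012 (-0.77 ± 0.56), so that only OP9M2 replicate 1 stood apart. Psph, the phosphatase of the last step, read 9.71 and 10.78 in OP9M2, against 10.49 and 10.05 in BFC012 (-0.024 ± 0.40). The hydroxymethyltransferases, which pass the carbon of serine to folate, differed by -0.18 ± 0.18 (the cytosolic Shmt1) and 0.39 ± 0.35 (the mitochondrial Shmt2). Of the 4 probe sets of Shmt1, 1425179_at (-0.95 ± 0.37) and 1422198_a_at (-0.66 ± 0.34) lay lower on both OP9M2 arrays without a call.

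Of the 7 genes of folate, thymidylate and purine synthesis, Mthfd1 was lower in OP9M2. It encodes the cytosolic enzyme that interconverts folate forms for purine and thymidylate synthesis. Probe set 1415916_a_at read 9.68 and 10.22 in OP9M2, against 11.87 and 11.47 in BFC012 (-1.71 ± 0.26, 3.28-fold, called), and 1415917_at read 9.18 and 9.71 in OP9M2, against 11.43 and 11.19 in BFC012 (-1.86 ± 0.23, called). The third probe set lay lower on both OP9M2 arrays too (6.67 and 7.84, against 8.70 and 8.68 in BFC012) without a call, and with replicate number as a block Mthfd1 was not called. The mitochondrial counterparts were not called. Mthfd2 read 9.58 and 10.75 in OP9M2, against 11.39 and 10.39 in BFC012 (-0.72 ± 0.53), Mthfd1l differed by -0.17 ± 0.35 and Aldh1l2 by 0.048 ± 0.14. Gart, which carries out steps of purine synthesis, had means of 9.40 in OP9M2 and 10.4 in BFC012 (-0.99 ± 0.23, not called), and its 3 probe sets above background on all 4 arrays were lower on both OP9M2 arrays (-1.52 to -0.72). Atic, of the last steps, differed by 0.083. Tyms, thymidylate synthase, had its brightest probe set at 5.01 and 6.88 in OP9M2, against 6.82 and 6.58 in BFC012 (-0.76 ± 0.64), and its other 3 probe sets were below background on every array.

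The transporters of the sodium-coupled SLC38 family differed most among the amino acid carriers, and in opposite directions. Slc38a1, which takes up glutamine and other neutral amino acids, read 5.48 and 5.93 in OP9M2, against 11.29 and 11.19 in BFC012 by probe set 1454764_s_at (-5.54 ± 0.20, at least 35.5-fold, called). By 1415903_at it read 6.79 and 7.02 in OP9M2, against 9.37 and 9.28 in BFC012 (-2.42 ± 0.15, 5.36-fold, called). The probe sets agreed in direction but not on whether OP9M2 was above background. Slc38a4, a relative known mainly from liver and placenta, went the other way, with 8.65 and 7.91 in OP9M2, against 5.67 and 5.65 in BFC012 by 1448889_at (2.62 ± 0.28, at least 4.57-fold, called). By 1428111_at it read 8.83 and 8.39 in OP9M2, against 3.67 and 3.90 in BFC012 (4.82 ± 0.21, at least 5.72-fold, called). With replicate number as a block Slc38a4 was not called. Slc38a2, the member of the family that is induced by amino acid shortage, had means of 12.6 in OP9M2 and 12.7 in BFC012 (-0.14 ± 0.13), and its other probe sets differed by -0.13 and -0.082.

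The other 8 transporters were not called. Slc1a4 (1.24 ± 0.22), Slc1a5 (0.89 ± 0.34) and Slc6a9 (0.71 ± 0.16), which carry small neutral amino acids and, for Slc6a9, glycine, lay higher on both OP9M2 arrays. Slc3a2, the heavy chain shared by several exchangers, had means of 10.7 in OP9M2 and 11.5 in BFC012 and lay lower on both (-0.81 ± 0.16). Its leucine-carrying partner Slc7a5 read 9.15 and 10.66 in OP9M2, against 10.98 and 10.46 in BFC012 (-0.82 ± 0.55), and the arginine transporter Slc7a1 read 9.77 and 11.45 in OP9M2, against 11.81 and 11.38 in BFC012 (-0.99 ± 0.59). In both genes OP9M2 replicate 1 was low and replicate 2 lay within the range of BFC012. The cystine exchanger Slc7a11 (4.31 and 4.63 in OP9M2, against 4.198 and 4.12 in BFC012) and Slc7a3 were below background on every array by all of their probe sets, so no level could be read for them.

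Of the measured genes with the ATF4 element in the promoter, only Nupr1 was called. Nupr1 was called higher (3.27), Slc1a4 (1.24) and Trib3 (0.71) lay higher without a call, Asns (0.058) and Got1 (-0.25) differed little, Chac1 (-0.80) lay lower without a call and Slc7a11 was below background. Glul, Mthfd1 and Slc38a4, which were called, had windows without these letters. For Slc38a1 no window was matched.

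Most genes of serine and folate metabolism read lower on OP9M2 replicate 1 than on replicate 2. They were all 5 genes of serine and glycine synthesis (3 by at least 1 log2 unit) and 6 of the 7 of folate, thymidylate and purine synthesis (2 by as much). The gap was small in Shmt1 (-0.095), and Aldh1l2 (0.097) went the other way. Mthfd1 (gap -0.53, difference -1.71) and Gart (gap -0.43, difference -0.99) differed more between the lines. Over the whole list OP9M2 replicate 1 was below replicate 2 in 28 of the 37 genes (75.7%, against 46.5% of all genes). This count takes gaps of any size. It includes Slc38a1 (-0.45), Slc7a11 (-0.31) and Slc7a3 (-0.13), which were below background on both OP9M2 arrays. The gap was at least 1 log2 unit in 8 of the 28, which were Tyms (-1.87), Slc7a1 (-1.68), Psat1 (-1.63), Slc7a5 (-1.52), Mthfd2 (-1.17), Chac1 (-1.15), Psph (-1.07) and Phgdh (-1.004). Tyms was below background on replicate 1, so its gap has no exact size, and with values raised to the background level the count was 7 of 37 (18.9%, against 2.59% of all genes). Genes below background in both lines cannot show a gap by this measure. They were 5889 of all 18193 genes and 2 of the 37, which lowers the share of all genes more. Of all genes 2.93% had a gap of this size and direction, and 4.47% had one in the opposite direction, which 0 of the 37 had. Nupr1, Slc38a4, Ddit3 and Atf5 read higher on replicate 1. Glul did so by its brighter probe set (gap 0.30) and not by its dimmer one (-0.53). These genes were picked out after their values were seen, and a single pair of arrays allows no test.

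Between the arrays of BFC012 the gaps were smaller. Replicate 1 was above replicate 2 in 30 of the 37 genes (81.1%, against 51.8% of all genes), and only Mthfd2 differed by 1 log2 unit (1.00). Gaps of any size were counted, such as 0.003 in Ddit3, 0.010 in Cth and 0.034 in Psat1. Slc38a4 (0.011) and Slc7a11 (0.079) were counted too, although both were below background in BFC012. The combination low in OP9M2 replicate 1 and high in BFC012 replicate 1 was found in 22 of the 37 genes (59.5%, against 26.7% of all genes), among them all 5 genes of serine and glycine synthesis. It rests on signs alone, and a gap was small in Psat1 (BFC012, 0.034) and in Shmt1 (OP9M2, -0.095).

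Genes of DNA replication and mitosis differed between the arrays in the same manner. All 24 measured were lower on OP9M2 replicate 1 than on replicate 2 (median gap -1.04, 14 by at least 1 log2 unit), and all 24 were higher on BFC012 replicate 1 than on replicate 2 (median gap 0.33). Ribonucleotide reductase Rrm2, for example, read 11.90 and 13.05 in OP9M2, against 12.81 and 12.49 in BFC012. Adipocyte genes ran the other way, with all 10 higher on OP9M2 replicate 1 (median gap 1.81). Their gaps ran from 0.26 in Plin2 to 7.43 in Adipoq, which read 12.84 and 5.41, below background on replicate 2. Cebpa read 12.69 and 8.92 in OP9M2. The part of cell division, of fat differentiation or of the low poly-A controls in the gaps of the serine and folate genes was not tested.

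**Figure D3:**
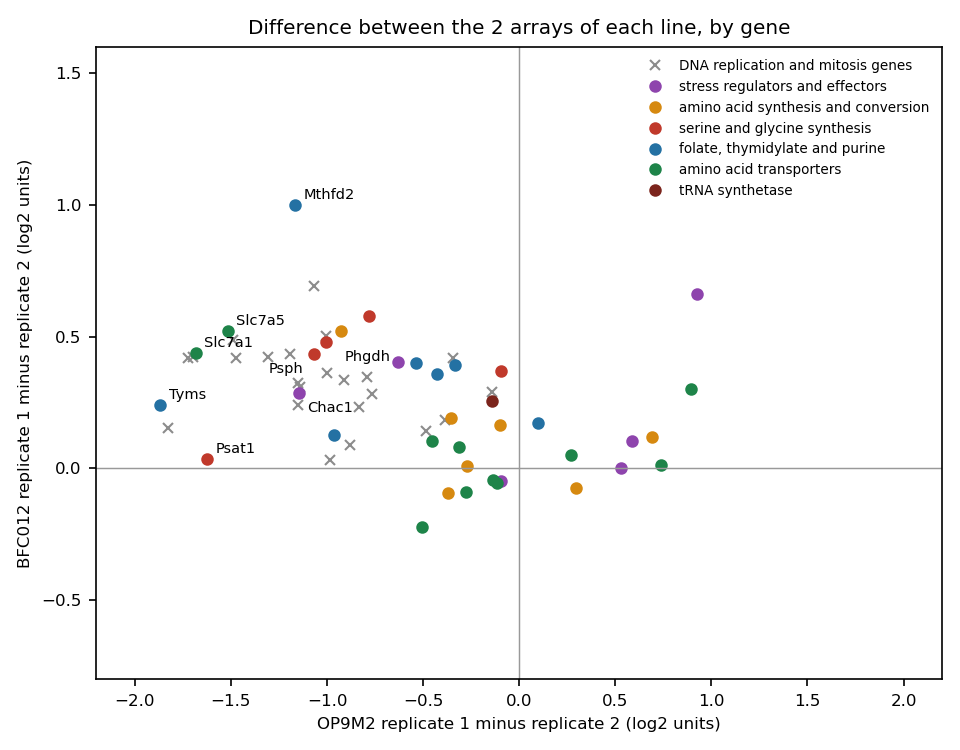
Replicate 1 minus replicate 2 within OP9M2 (horizontal axis, log2 units) and within BFC012 (vertical axis, log2 units) for each of the 37 genes (dots, coloured by role) and for 24 genes of DNA replication and mitosis (grey crosses). Of the crosses, Ccne2 (OP9M2 gap -2.37) lies outside the plot. The 8 genes of the list with an OP9M2 gap of at least 1 log2 unit are named. Most serine and folate genes spread to the upper left, as the crosses do, with Mthfd2 (BFC012 gap 1.00) above the highest cross (Gins2, 0.69). To the right of 0 lie Aldh1l2 and, among others, Nupr1, Glul, Ddit3 and Slc38a4.

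The number of calls depended on the arrays used, over all genes as well as in the list. Without OP9M2 replicate 2 there were 6 genes of the list called higher and 8 lower, and 12.7% of all genes were called. In this setting Chac1 (-1.37), Gart (-1.20), Psat1 (-1.58), Slc7a1 (-1.83), Slc7a5 (-1.57) and Tyms (-1.69) were lower with Mthfd1 and Slc38a1. Without OP9M2 replicate 1 there were 5 higher and 2 lower, with 9.19% of all genes called, and Psat1 (0.041), Slc7a1 (-0.15) and Slc7a5 (-0.058) were close to BFC012. With BFC012 replicate 1 or replicate 2 left out limma called 0 of all 18193 genes, and thus 0 of the 37, of which 11 (without replicate 1) and 10 (without replicate 2) had an unadjusted p under 0.05, against 12.1% and 12.4% of all genes.

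Related genes outside the list were read from 7 lists with 140 measured genes, of which 5 were called higher and 6 lower. Of all genes 2.36% were called higher and 3.56% lower. An unadjusted p under 0.05 in limma was reached by 39 of the 140, against 23.3% of all genes. Of 21 other genes of the stress response, 3 were called lower in OP9M2 and 0 were called higher (median -0.37). In this list 9 reached an unadjusted p under 0.05, 7 lower and 2 higher. Vldlr, a lipoprotein receptor that ATF4 can induce, read 4.02 and 3.87 in OP9M2, against 8.81 and 10.01 in BFC012 (-5.47 ± 0.42, at least 9.96-fold). Atf3, a factor induced by many stresses, read 5.96 and 6.86 in OP9M2, against 9.28 and 9.10 in BFC012 (-2.78 ± 0.33). Atf6, a sensor of stress in the endoplasmic reticulum, differed by -1.14 ± 0.18. These were lower in the line in which Nupr1 was higher and Ddit3 was higher by 1 probe set.

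Limma called 0 of 18 endoplasmic reticulum chaperones and related genes, where it called 5.91% of all genes. An unadjusted p under 0.05 was reached by 1 of the 18 (median 0.010), a level that 23.3% of all genes reached. The largest differences there were in Syvn1 (-0.98 ± 0.18) and Dnajb9 (0.63 ± 0.32). It called 0 of 18 other tRNA synthetases (3 at an unadjusted p under 0.05, median -0.23), with the largest differences in Hars (-0.94 ± 0.39) and Gars (-0.70 ± 0.22), and 17 of the 18 were lower on OP9M2 replicate 1 than on replicate 2. Of 19 other folate genes it called 0 as well (6 at an unadjusted p under 0.05, median -0.052), with Ggh at 1.02 ± 0.22 and Mthfd2l at -1.02 ± 0.29. Among 19 other genes of purine and pyrimidine synthesis Adssl1, an enzyme of purine interconversion known from muscle, was higher (9.50 and 10.02 in OP9M2, against 5.31 and 6.46 in BFC012, 3.87 ± 0.44) and 18 were not called (median -0.17). Of the 19 genes 4 reached an unadjusted p under 0.05 in limma.

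Among 24 other enzymes of amino acid metabolism, 3 were higher, 1 was lower and 20 were not called (median -0.049). Of all genes 5.91% were called. Cdo1, which oxidises cysteine and is known from fat and liver, read 10.62 and 8.87 in OP9M2, against 4.67 and 5.01 in BFC012 (4.91 ± 0.61, at least 12.6-fold). Bckdhb, a subunit of the complex that breaks down branched-chain amino acids, differed by 2.28 ± 0.18 and Asrgl1, an asparaginase, by 1.39 ± 0.16. Aass (-1.52 ± 0.20), of lysine breakdown, was below background in both lines. Of 21 other amino acid transporters, Slc7a2 (-2.77 ± 0.36), which carries arginine, and Slc7a6 (-1.21 ± 0.14) were lower, Slc38a6 was higher (1.43 ± 0.23), and 18 were not called (median -0.046). Of the adipocyte markers, 5 of 10 were higher in OP9M2 and 0 lower (median 4.35), and the part of this difference in Glul, Slc38a4 or Cdo1 was not tested.

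**Figure D4:**
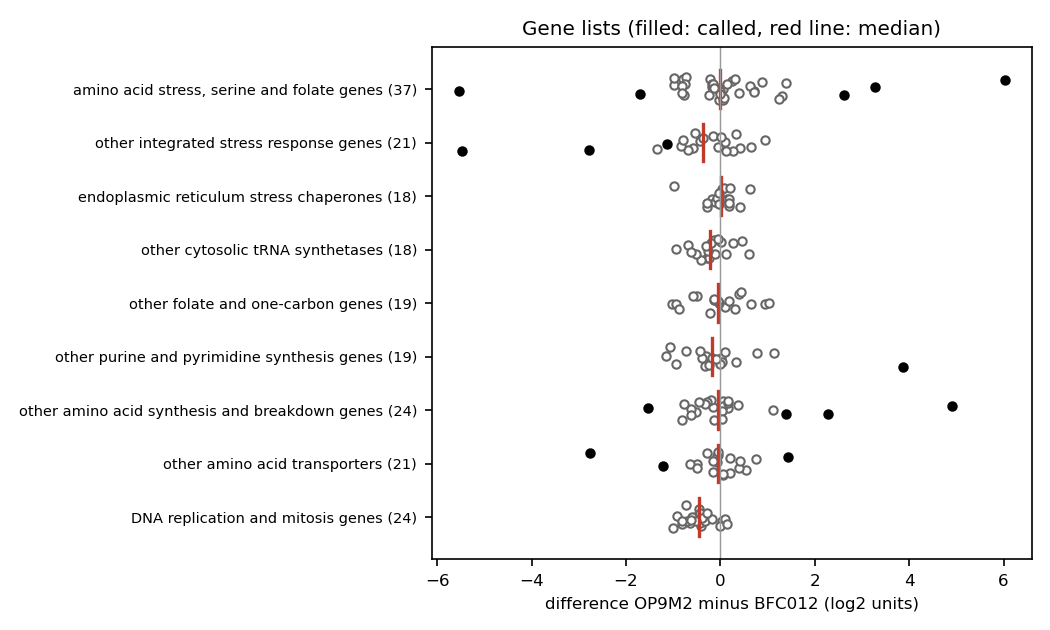
Difference OP9M2 minus BFC012 (horizontal axis, log2 units) of each measured gene of the list described here (top row) and of 8 related lists (rows, number of genes in brackets); filled points were called, open points were not, red lines are medians and points are spread vertically at random for legibility. Medians lie between -0.45 (DNA replication and mitosis) and 0.010 (chaperones), and the called genes of the top row reach 6.03 and -5.54.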

How the data were processed

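Amplified RNA of OP9M2 and BFC012 cells was measured on whole-genome Affymetrix mouse arrays, 2 for each line. Each deposited value is the intensity of a probe set on an array. The authors made them by RMA in affy, whose version is not given in the sources used here. Values exceeded the scanner maximum of 65535 for 6.31% to 6.57% of probe sets, and their natural logarithms lay between 2.06 and 14.9. Across 18 hybridization controls each doubling of the spike added 0.839 to the natural logarithm and 1.21 to log2. For this reason natural logarithms were taken for the log2 values of RMA, although the base stays unstated. Deposited medians were 441 and 451 in OP9M2 and 450 and 431 in BFC012.

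Of 45101 probe sets 64 controls were left out, and 34945 named 1 gene, 932 several (used without a name) and 9160 none. Gene identifiers of 34741 were found in the reference table. Background was the 95th percentile of 81 receptor probe sets. Lines were compared with lmFit and eBayes of limma 3.58.1 under R 4.3.3 (no covariate, Benjamini-Hochberg over 45037 probe sets, both directions), tested on simulated data. Residual degrees of freedom were 2 and those of the prior 2.50, so the number of arrays limits the precision. Genes and lists were chosen with earlier results of these data known. Every gene of the list is named, with values on each array for called genes, genes whose probe sets disagree and Atf4, Ddit3, Asns, Phgdh, Mthfd2 and Slc7a11. In related lists the called genes (at most 4) or, with 0 called, the 2 with the largest difference are named. Values on each array of other genes were added after they were seen. Alternatives covered scale, normalization, dim probe sets, choice of probe set, variance model, fold minimum, replicate block and each array left out.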

Additional observations from a re-analysis of the deposited data

How the results depend on the processing

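Among the 37 genes the counts of 3 higher and 2 lower were unchanged with log2 of the deposited value (which multiplies differences by 1.44), median centring, an intensity trend with robust variances and no fold minimum, and quantile normalization or the mean of all probe sets gave 4 and 2. Glul, Nupr1, Slc38a4, Slc38a1 and Mthfd1 kept their direction in every setting that measured them. Quantile normalization called 6.21% of all genes and the mean of all probe sets 6.14%. With dim probe sets left out 5 of 35 genes were higher and 2 lower, and 10.1% of all genes left were called. Without probe sets that can match several transcripts, which removes every probe set of Glul and Nupr1, 1 was higher and 3 were lower, among 28 measured. Of all genes 5.8% were called there. Leaving out 1 array gave 0 to 6 higher and 0 to 8 lower, and for the 140 related genes 0 to 9 higher and 0 to 15 lower. Where a line was left with 1 array, it was assumed to vary like the other.

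Replicate differences of the lines had a correlation of -0.103 over probe sets, -0.202 over all genes and -0.330 over the 37 genes. The labels do not say whether arrays of the same number were handled together, and a single pair of arrays per line cannot settle it. With replicate number as a block, which leaves fewer degrees of freedom, 2 genes were higher and 1 lower, since Slc38a4 (2.62) and Mthfd1 (-1.71) were no longer called, with 140 higher and 280 lower over all genes. Of the related genes 2 were higher and 1 was lower. A crossed pairing of the numbers, chosen after seeing the data, gave 3 higher and 2 lower, and 2 higher and 4 lower for the related genes. It called 4.27% of all genes. Median differences moved by less than the spread between arrays in all settings. That spread is taken from the list median on each array, for the 37 genes 9.38 and 10.34 in OP9M2 and 10.09 and 9.70 in BFC012. It is wide beside their median difference of -0.015, so this says little about stability.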
